A study of Homo sapiens with 4 samples.

Results

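Most human miRNAs are cut out of a long primary transcript by the Microprocessor, the complex of DROSHA and DGCR8. The miRNAs described here were chosen as reported or presumed to bypass all or part of that step, which was not tested here. They were selected by name. The hairpins of miR-320a and miR-484 were reported to be made directly as short capped transcripts. miR-877, miR-1224 to miR-1229 and miR-3605 are mirtrons or lie at a splice site of a host gene. The names in the selection numbered 10, of which 9 had at least 1 row, and miR-1225 had none. All strands were kept, which gave 14 of the 1345 miRNA rows of the table, 2 from capped hairpins and 12 from mirtron-like hairpins.

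The small-RNA libraries numbered 4 and came from HCT116, a colorectal carcinoma line, with a short hairpin RNA (shRNA) to SAE2 that doxycycline switches on. SAE2 is the catalytic subunit of the enzyme that activates SUMO, a small protein attached to other proteins. There were 2 plus libraries and 2 minus libraries, read here as with and without induction. The plus group was labelled sh-plus (replicate 1) and sh2-plus (replicate 2), and the minus group sh1-minus (replicate 1) and sh2-minus (replicate 2). Both groups carry an shRNA construct, and 3 days of doxycycline are written in the protocol of every library, minus included, so that the reading of minus as uninduced rests on that word. Each shRNA has 1 established line, whether it is a clone is not given, sh1 and sh2 are independent shRNAs, and plus replicate 1 was placed in the sh1 line by elimination. Cells given doxycycline but no shRNA to SAE2 were not analysed here, so an effect of the drug cannot be told apart from that of the shRNA. SAE2 mRNA is not read by these libraries, so the knockdown was not checked.

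In the capped route, transcription starts at the base of the hairpin and stops just after it, so the 5′ end carries a cap, DROSHA is not needed, and the hairpin leaves the nucleus through XPO1 in place of XPO5. In the mirtron route, the spliceosome excises a short intron, the lariat is opened by the debranching enzyme, and the intron folds into a hairpin that Dicer can cut. A tailed mirtron has only 1 end of its hairpin at a splice site and the other end trimmed. miR-1225 and miR-1228 were also reported as simtrons, made in human cells without splicing and with DROSHA but not DGCR8, which is neither of these routes.

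The hairpin ends were checked against GENCODE 29 introns, with hairpin and mature sequences from the RefSeq table (GRCh38.p14). No hairpin of miR-320a was among the 9 found, so its ends were not checked. Of the 9 hairpins found, 7 began and ended exactly at the first and last base of an annotated intron. These introns were 69 to 90 bases long and lay in ABCF1 (MIR877), DHX30 (MIR1226), VWA5B2 (MIR1224), MGAT4B (MIR1229), PLEKHJ1 (MIR1227), LRP1 (MIR1228) and PKD1 (MIR1225). The match held in 9 of 11 transcripts of that strand for MIR1227, in 9 of 10 for MIR1229 and in all for the others. ABCF1 takes part in translation initiation, DHX30 is an RNA helicase, MGAT4B branches N-glycans and LRP1 is an endocytic receptor. All 7 began with GU and ended with AG, the letters of a splice donor and acceptor. These ends go with being a whole intron and are not a separate finding. Of the 1562 hairpins in the RefSeq table, these 7 included, 2.3% had such ends. Each of the 7 mature 5p arms began at the first intron base, and 6 of the 7 3p arms ended at the last, the exception being miR-1228-3p, which ended 2 bases before it. The 3p arms held 63.6% to 90.5% pyrimidines and the 5p arms 20% to 31.8%.

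The 3 mirtron hairpins with both strands at a testable level are shown to make the splice ends visible, 5′ to 3′, with the mature arms in capitals and the loop in lower case. MIR877 lies at chr6:30584332-30584417, MIR1226 at chr3:47849555-47849629 and MIR1224 at chr3:184241405-184241489, all on the plus strand of GRCh38.p14.
MIR877: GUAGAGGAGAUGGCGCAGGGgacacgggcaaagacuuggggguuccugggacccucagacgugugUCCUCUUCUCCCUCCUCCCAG
MIR1226: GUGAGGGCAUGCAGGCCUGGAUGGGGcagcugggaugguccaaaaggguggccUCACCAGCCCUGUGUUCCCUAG
MIR1224: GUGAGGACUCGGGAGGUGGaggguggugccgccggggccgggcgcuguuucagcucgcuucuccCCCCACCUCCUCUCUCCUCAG

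The other 2 hairpins did not match an intron. The 3p arm of miR-3605 (chr1:33332405-33332427, minus strand) ended at the last base of an intron of PHC2, a Polycomb protein gene, in 9 of 9 transcripts of that strand. Its hairpin ran on for 12 bases into the next exon, and its 5p arm did not start at a splice site. That hairpin is thus not a whole intron, and whether miR-3605 bypasses the Microprocessor was not tested. Its 2 rows are still counted here as mirtron-like. MIR484 (chr16:15643294-15643372, plus strand) lay within an exon, in the untranslated part of 1 transcript of NDE1, a gene for a dynein regulator of the centrosome. Mature miR-484 lay on the 5′ side of the hairpin. The hairpin began 27 bases downstream of the annotated start of that transcript, and so not at that start. Whether miR-484 is made by the capped route was not tested.

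**Figure D1:**
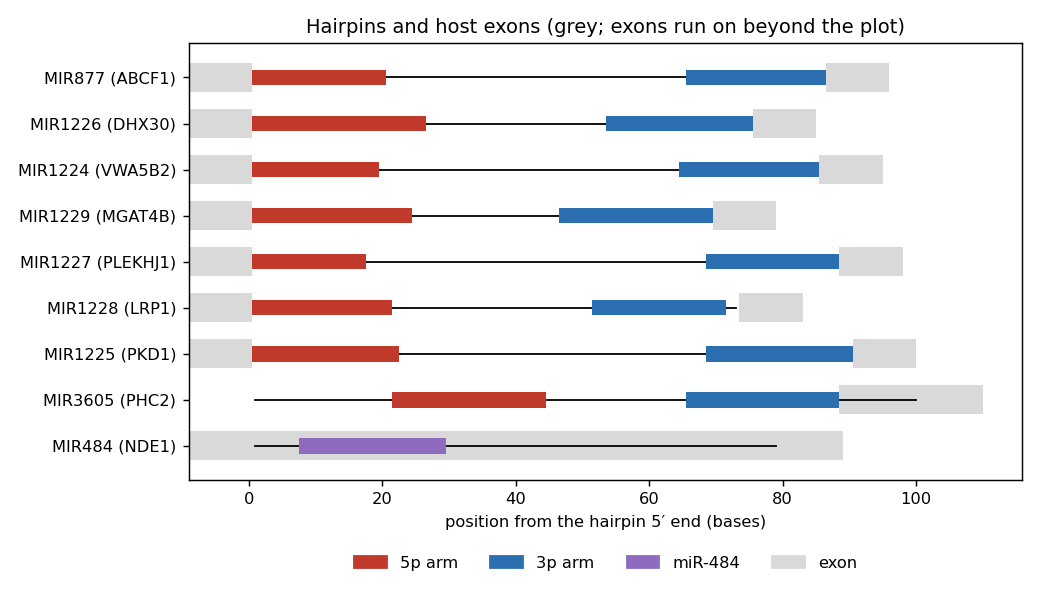
Position of the mature arms on 9 hairpins, in bases from the hairpin 5′ end, with exons of the host gene in grey and introns unshaded. The 5p and 3p arms of 7 hairpins lie at both ends of a whole intron (miR-1228-3p 2 bases short of it), the 3p arm of miR-3605 reaches the intron end with the hairpin running on into the exon, and MIR484 lies inside an exon.

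Of the 14 rows, 11 matched a RefSeq mature sequence by name, and miR-320a, miR-1227 and miR-1229 did not match. The mature strands that the results turn on are given with the seed, bases 2 to 8, in capitals, to show what each would pair with.
miR-484: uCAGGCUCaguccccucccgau
miR-877-5p: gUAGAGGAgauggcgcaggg
miR-877-3p: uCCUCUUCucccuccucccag
miR-1226-5p: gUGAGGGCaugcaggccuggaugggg
miR-1226-3p: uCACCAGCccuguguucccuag
miR-1224-5p: gUGAGGACucgggaggugg
miR-1224-3p: cCCCACCUccucucuccucag
miR-3605-5p: uGAGGAUGgauagcaaggaagcc
No seed was shared between strands of the 9 hairpins. In the mirtrons the 5p seed starts inside the splice donor, so miR-1226-5p and miR-1224-5p begin with the same letters and differ within the seed. The 11 matched strands had a median GC content of 65.0% (52.2% to 76.2%), against 52.2% over the 2370 mature sequences of the table.

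The libraries summed to 9833885 and 10519207 normalised read counts in plus replicates 1 and 2, and to 9847531 and 9700472 in minus replicates 1 and 2. The deposited values are scaled read counts, with 1 read worth 0.943 to 1.027, and their totals were not equal between libraries. The epithelial marker miR-200c-3p was high, at 128692 and 135723 in the plus and 119446 and 122647 in the minus libraries. Epithelial marker miRNAs, 5 of 5 found, summed to 234611 and 241808 in the plus and to 207623 and 206232 in the minus libraries. Of these, miR-192-5p (log2 change 0.78, limma adjusted p = 9.78e-09), miR-194-5p (0.72, 4.74e-08) and miR-200b-3p (0.28, 0.00729) rose. miR-200c-3p (0.13, limma adjusted p = 0.257) and miR-141-3p (0.17, 0.118) did not pass. Blood markers, 6 of 6 found, summed to 1022 and 1191 in the plus and 991 and 1207 in the minus libraries, with miR-144-3p at 0 in plus replicate 2 and minus replicate 2. Most of the blood sum was miR-486-5p, at 853 and 998 in the plus and 789 and 1014 in the minus libraries. Stromal and endothelial markers, 5 of 5 found, summed to 13455 and 16189 in the plus and 15960 and 16012 in the minus libraries. Within that sum miR-143-3p rose (log2 change 0.29, limma adjusted p = 0.0414) and miR-145-5p fell (−0.29, limma adjusted p = 0.0125). miR-126-3p and miR-199a-5p did not pass, and miR-214-3p, at 1.03 to 4.09 counts, was too low to be tested. The part of these marker lists in the results was not tested. In a bulk library, fewer cells of a kind and less RNA per cell cannot be told apart.

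Levels ran from rank 58 to rank 1171 of the 1345 rows. miR-320a stood highest of the 14 by its mean over the 4 libraries, followed by miR-484 at rank 83 and miR-877-5p at rank 154. In every library miR-320a exceeded miR-484, which exceeded miR-877-5p. Both capped miRNAs made up 93.2% ± 0.589 of the normalised counts of the 14 rows in the plus and 93.4% ± 0.0340 in the minus libraries (SD, n = 2 each). Within the mirtron-like rows miR-877-5p alone held 78.0% ± 1.89 in the plus and 79.4% ± 1.52 in the minus libraries (SD, n = 2 each).

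Below miR-877-5p the levels dropped steeply, and the ranges of most neighbours in the order overlapped over the 4 libraries. miR-1226-3p had 155 to 190 normalised counts over the 4 libraries, above miR-877-3p in each of them. miR-877-3p (78.7 to 123) overlapped miR-1224-5p (59.5 to 82.2) in range, though it was the higher in each library. miR-1229 (21.5 to 25.7) overlapped miR-1224-3p (12.4 to 25.2) and miR-3605-5p (11.4 to 23.5), as these did miR-1226-5p (8.21 to 21.2). Within each library miR-1229 was above miR-1224-3p, but only by 25.19 against 25.18 in minus replicate 1. The lowest were miR-1227 (1.06 to 15.3), miR-3605-3p (4.69 to 9.22), miR-1228-3p (1.01 to 3.80) and miR-1228-5p (0 to 1.02). A level compares reads between miRNAs and not molecules. The rows named miR-1227 and miR-1229 carry no arm and were not assigned to one.

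**Figure D2:**
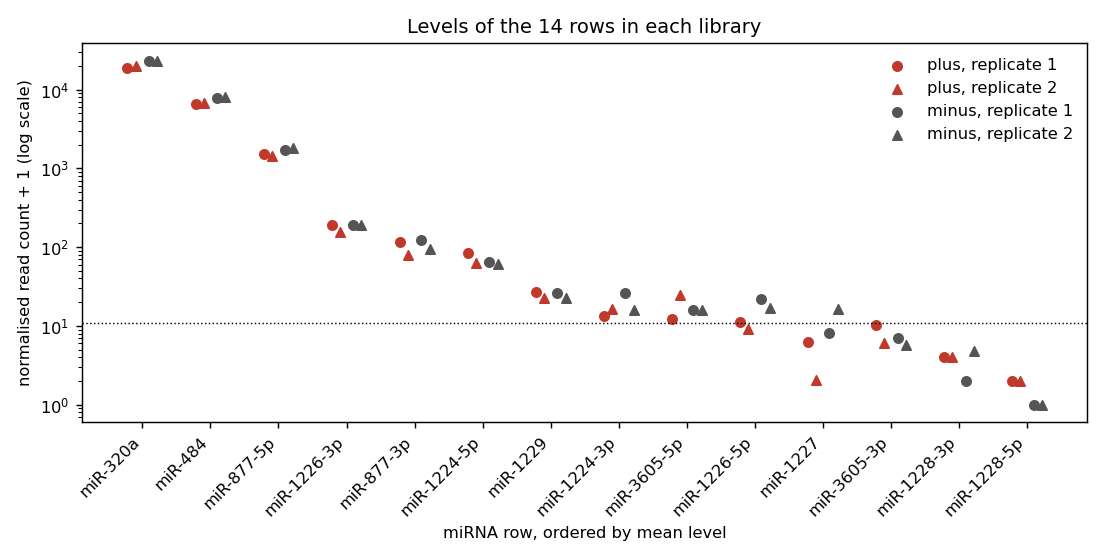
Normalised read count (plus 1, log axis) for each of the 14 rows, ordered by mean level, in the plus libraries (red, left) and the minus libraries (grey, right), with circles for replicate 1 and triangles for replicate 2. The dotted line marks the mean of 10 needed for the test, which 10 rows reached. Both red symbols lie below both grey ones for miR-320a, miR-484, miR-877-5p, miR-1226-5p and the untested miR-1227. They lie above both for the untested miR-1228-5p, at 1.02 in each plus library against 0.

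Both capped miRNAs were lower with induction, by almost the same factor. miR-320a, which was reported to target the mRNA of beta-catenin in colon cancer cells, had 18949.5 and 19785 normalised counts in plus replicates 1 and 2, against 22799 and 23316 in minus replicates 1 and 2. Both plus libraries lay below both minus libraries, and the gap between the groups was wider than that within either. miR-320a averaged 19367 ± 591 in the plus and 23057 ± 365 in the minus libraries (SD, n = 2 each), a ratio of 0.840. On the scale of log2(value + 1) it changed by −0.25 ± 0.08 (standard error, limma adjusted p = 0.0168).

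miR-484, reported to act on the mitochondrial fission protein FIS1 in heart cells, had 6590.01 and 6704 normalised counts in plus replicates 1 and 2, against 7915 and 8007 in minus replicates 1 and 2. Again the groups did not overlap, and the gap between them was wider than the difference within either group. It averaged 6647 ± 80.8 in the plus and 7961 ± 64.7 in the minus libraries (SD, n = 2 each), a ratio of 0.835 and a log2 change of −0.26 ± 0.09 (standard error, limma adjusted p = 0.0198).

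Of the 10 rows tested, these 2 fell, none rose and 8 did not pass. Over all 709 miRNAs tested 15.1% fell and 13.4% rose, together 28.5% (95 rises and 107 falls, against 121 and 83 after rescaling by the median ratio), so falls among the tested rows were about as frequent as in the whole profile. Among the 190 tested rows with a mean of at least 1000, 19.5% fell, and 34 of them had a lower log2 change than miR-320a and 32 a lower one than miR-484. Both calls ended when the values were rescaled by the median ratio (log2 change −0.19 and −0.20, limma adjusted p = 0.120 and 0.112), with no level filter (0.105 and 0.1001), with no mean-variance trend (0.222 and 0.208), and with any 1 library left out. Without minus replicate 1 the limma adjusted p was 0.166 for miR-320a and 0.161 for miR-484, without minus replicate 2 0.237 and 0.193, without plus replicate 1 0.120 and 0.108, and without plus replicate 2 0.0747 and 0.0794, with log2 changes between −0.28 and −0.22.

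The ratio between the capped miRNAs does not depend on a linear scaling of the libraries. miR-320a stood at 2.88 and 2.95 times miR-484 in plus replicates 1 and 2, and at 2.88 and 2.91 times in minus replicates 1 and 2. The log2 ratio in the plus minus that in the minus libraries was 0.0084, below its SD of 0.026 in the plus and 0.011 in the minus libraries (n = 2 each). miR-484 was also the row closest to miR-320a in its profile over the 4 libraries, first of 189 other rows with a mean of at least 1000, with a root-mean-square difference of 0.015 in centred log2 values. The rows next closest to miR-320a were miR-93-5p at 0.024 and miR-222-5p at 0.025, and those next closest to miR-484 were let-7i-5p at 0.021 and miR-93-5p at 0.024. These are distances over 4 libraries, given as a description.

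Relatives of miR-320a also had lower means with induction. Of the 5 rows related to it by name or seed, 3 were tested, of which miR-320b and miR-320c fell and miR-320d did not pass. miR-320b had 755 and 827 normalised counts in plus replicates 1 and 2, against 981 and 1051 in minus replicates 1 and 2, a log2 change of −0.36 (limma, adjusted p = 0.0154). miR-320c had 128 and 104 in plus replicates 1 and 2, against 158 and 178 in minus replicates 1 and 2, a log2 change of −0.54 (limma, adjusted p = 0.0248). Their groups did not overlap.

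miR-320d was at −0.45 (95% interval −0.98 to 0.07, limma adjusted p = 0.209), with 38.1 and 50.1 in the plus and 55.4 and 65.3 in the minus libraries, and at −0.26 without plus replicate 1. miR-320e, with about 5 reads in the plus and 10 in the minus libraries, and miR-4429, with about 3 in the plus and 6 in the minus libraries, were too low to be tested. These relatives are nearly the same in sequence as miR-320a, and how the counting divided reads between them is not given in the sources used here, so they are not independent of it. miR-320a stood at 25.1 and 23.9 times miR-320b in the plus and at 23.2 and 22.2 times in the minus libraries. The calls of miR-320b and miR-320c ended under quantile normalization (limma adjusted p = 0.206 and 0.1001), with no mean-variance trend (0.147 and 0.113) and with no level filter (0.126 and 0.175), and that of miR-320c also at a minimum mean of 100 (0.0526). With 1 library left out the limma adjusted p ranged from 0.0619 without minus replicate 1 to 0.181 without minus replicate 2 for miR-320b, and from 0.0799 to 0.230 without the same libraries for miR-320c.

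**Figure D3:**
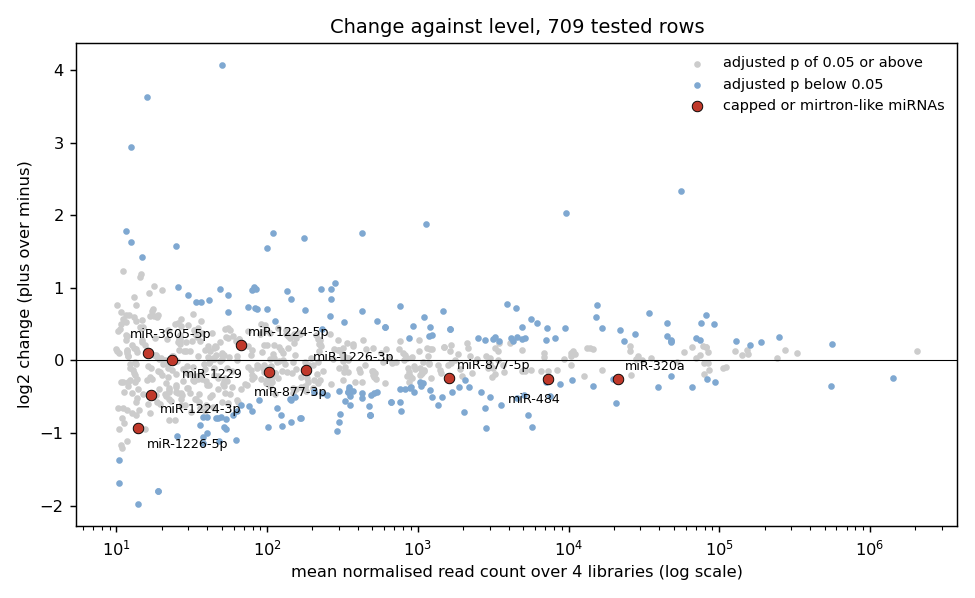
Log2 change, plus over minus, against the mean normalised read count on a log scale for the 709 tested rows, blue where the adjusted p was below 0.05, with the 10 tested capped or mirtron-like rows in red. miR-320a, miR-484 and miR-877-5p lie at nearly one height, at −0.25, −0.26 and −0.24, within the cloud of other rows of their level.

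No mirtron-like row passed the test. The most abundant, miR-877-5p, had 1529 and 1439 normalised counts in plus replicates 1 and 2, against 1717 and 1786 in minus replicates 1 and 2. Its groups did not overlap, at 1484 ± 63.2 in the plus and 1752 ± 48.2 in the minus libraries (SD, n = 2 each). The log2 change was −0.24 (95% interval −0.45 to −0.03), close in size to that of the capped miRNAs, with a limma adjusted p of 0.0798. miR-484 stood at 4.31 and 4.66 times miR-877-5p in the plus and at 4.61 and 4.48 times in the minus libraries, ranges that overlap.

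The partner strand miR-877-3p had 115 and 78.7 normalised counts in plus replicates 1 and 2, against 123 and 92.5 in minus replicates 1 and 2. Both replicates 1 lay above both replicates 2, a pattern noticed after the values were seen. The log2 change of −0.16 had a 95% interval of −0.59 to 0.27 (limma, adjusted p = 0.604). Within each library, taken as the ratio of values + 1 here and for the other arm pairs, miR-877-5p was 13.2 and 18.1 times its partner in plus replicates 1 and 2, and 13.9 and 19.1 times in minus replicates 1 and 2, which differs more between the replicates than between the groups (log2 difference −0.077, exact two-sided permutation p = 0.667). With 1 library left out that difference took either sign, at −0.31 without minus replicate 1, −0.30 without plus replicate 2 and 0.15 without either of the others. The 5p arm, which carries the splice donor, was the major strand in every library.

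DHX30 hosts miR-1226, whose 3p strand was reported to target the mucin MUC1 and was here the major one. miR-1226-3p had 190 and 155 normalised counts in plus replicates 1 and 2, against 187 and 189 in minus replicates 1 and 2, and the groups overlapped. Its log2 change was −0.13 (95% interval −0.48 to 0.21, limma adjusted p = 0.603). miR-1226-5p had 10.3 and 8.21 normalised counts in plus replicates 1 and 2, against 21.2 and 16.1 in minus replicates 1 and 2. The groups of this low strand did not overlap, and it had the largest change in size among the 10 tested rows, a log2 change of −0.93 (95% interval −1.83 to −0.04).

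That change did not pass over all miRNAs (limma, adjusted p = 0.115). It rests on about 18 reads in the plus and 38 in the minus libraries (ratio 0.478), with a 95% exact binomial interval of 0.257 to 0.858, which covers counting error only. Within each library miR-1226-5p was 0.0592 and 0.0589 times the 3p strand in plus replicates 1 and 2, and 0.118 and 0.0900 times in minus replicates 1 and 2. The arm balance differed by −0.80 on the log2 scale, with an exact permutation p of 0.333 (two-sided), which is the minimum for a design of 2 against 2.

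The miR-1224 strands, from VWA5B2, differed in the sign of their log2 change, and neither passed. miR-1224-5p had 82.2 and 62.3 normalised counts in plus replicates 1 and 2, against 63.5 and 59.5 in minus replicates 1 and 2, with a log2 change of 0.22 (95% interval −0.26 to 0.69, limma adjusted p = 0.522). miR-1224-3p had 12.4 and 15.3 in the plus replicates, against 25.2 and 15.1 in the minus replicates, with a log2 change of −0.47 (95% interval −1.30 to 0.35, limma adjusted p = 0.409). With 1 library left out miR-1224-5p ran from 0.02 (without plus replicate 1) to 0.41 (without plus replicate 2), and miR-1224-3p from −0.82 (without minus replicate 2) to −0.12 without minus replicate 1, the high library of the 3p strand. The 5p strand was 6.22 and 3.88 times the 3p strand in plus replicates 1 and 2, and 2.46 and 3.76 times in minus replicates 1 and 2, a log2 difference in arm balance of 0.69 (exact two-sided permutation p = 0.333). It came to 0.35 when plus replicate 1 was left out, to 0.38 when minus replicate 1 was, and to 1.03 when plus replicate 2 was.

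miR-1229, from MGAT4B, averaged 23.6 ± 2.98 normalised counts in the plus and 23.4 ± 2.47 in the minus libraries (SD, n = 2 each), with 25.7 and 21.5 in plus replicates 1 and 2, against 25.2 and 21.7 in minus replicates 1 and 2. Its log2 change was 0.01, and at this level the 95% interval of −0.70 to 0.71 covers both directions (limma, adjusted p = 0.988). miR-3605-5p had 11.4 and 23.5 in the plus replicates, against 15.1 and 15.1 in the minus replicates, so that the plus libraries lay on either side of the minus ones. Its log2 change was 0.11 (95% interval −0.74 to 0.96, limma adjusted p = 0.874).

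The 4 rows below the level filter rest on a few reads each. miR-1227, from PLEKHJ1, had 5.16 and 1.06 normalised counts in plus replicates 1 and 2, against 7.06 and 15.3 in minus replicates 1 and 2. Estimated reads were 6 in the plus and 23 in the minus libraries (ratio 0.263, 95% exact binomial interval 0.0876 to 0.665), and with 1 library left out the ratio ran from 0.0846 (without plus replicate 1) to 0.421 without minus replicate 2 and 0.455 without plus replicate 2. Minus replicate 2 was the high library. miR-3605-3p had about 14 reads in the plus and 11 in the minus libraries (ratio 1.28, interval 0.541 to 3.12) and miR-1228-3p about 6 in the plus and 5 in the minus libraries (ratio 1.21, interval 0.308 to 5.01). The direction turned with 1 library left out, to a ratio of 0.885 without plus replicate 1 for miR-3605-3p and of 0.776 without minus replicate 1 for miR-1228-3p, which was at 2.95 without minus replicate 2. miR-1228-5p had 1 read in each plus library and none in the minus libraries, which is under the floor of 3 reads, and 11 other rows of the table had the same values in all 4 libraries.

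**Figure D4:**
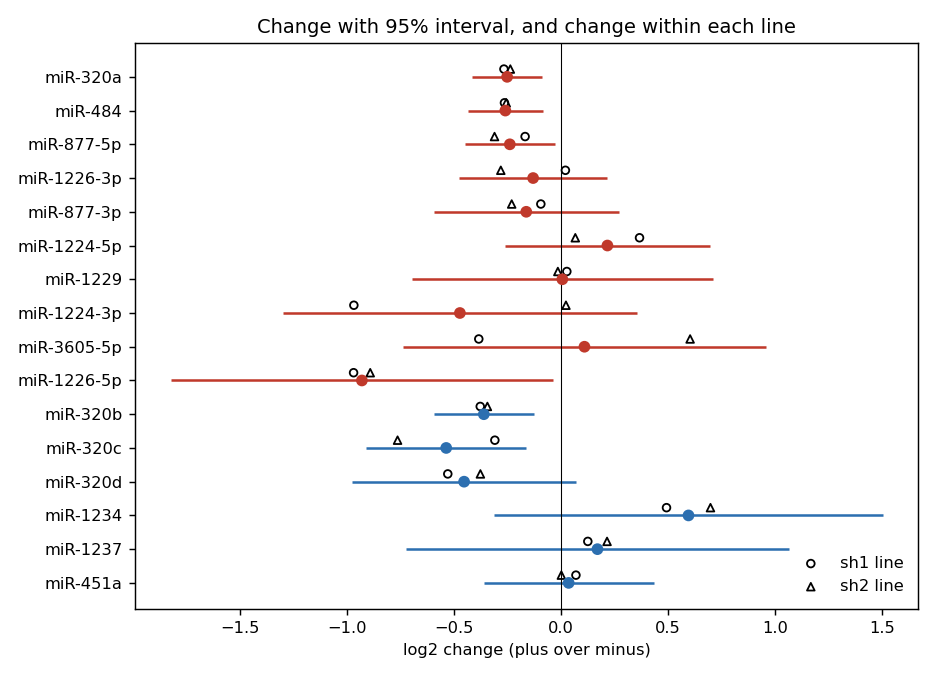
Log2 change, plus over minus, with its 95% interval (filled points and lines) for the 10 tested rows in red and the tested rows of the further lists in blue, with the change within the sh1 line (open circle) and the sh2 line (open triangle). The intervals of miR-320a, miR-484, miR-877-5p, miR-1226-5p, miR-320b and miR-320c lie below 0, and the lines coincide most closely for miR-320a, miR-484 and miR-320b.

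Each shRNA line gave 1 plus and 1 minus library, too few for a test within it. By line, 5 of the 10 tested rows were lower with induction in both lines, 1 was higher in both and 4 had opposite signs. The matching shares over all tested miRNAs were not counted, so these counts only describe the rows. The rows include both arms of miR-877, miR-1226 and miR-1224, which are not separate cases. miR-320a changed by −0.27 in the sh1 line and −0.24 in the sh2 line, and miR-484 by −0.26 in both. miR-877-5p changed by −0.17 in the sh1 line and −0.31 in the sh2 line, miR-877-3p by −0.09 and −0.23, and miR-1226-5p by −0.97 and −0.89. miR-1224-5p was the row higher in both, at 0.37 and 0.07.

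Over the 10 tested rows the median log2 change was −0.20, and over the 8 mirtron-like rows among them −0.15, against −0.03 over all 709 rows. Without minus replicate 1 the medians were −0.13 over the 10 rows and −0.004 over all tested rows, and under median-ratio scaling −0.14 and 0.031. Log2 changes below 0 were found in 7 of the 10, against 52.2% of all tested rows. The plus libraries lay below both minus libraries in 4 of the 10 rows, against 33.9% of all tested rows, and above both in none, against 29.1%.

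Other miRNAs with unusual routes gave no call. Of 4 further human mirtrons, 2 were tested and neither passed, with miR-1234 at 17.4 and 14.3 normalised counts in plus replicates 1 and 2, against 12.1 and 8.42 in minus replicates 1 and 2 (log2 change 0.60, 95% interval −0.31 to 1.505, limma adjusted p = 0.345). miR-1237 was at 0.17 (95% interval −0.72 to 1.06, limma adjusted p = 0.818). miR-1236, with about 4 reads in each group, and miR-1238, with 1 read in all, were not tested. miR-451a, which needs the Microprocessor and is cut by AGO2 in place of Dicer, had 108 and 115 normalised counts in plus replicates 1 and 2, against 103 and 115 in minus replicates 1 and 2 (log2 change 0.04, 95% interval −0.36 to 0.43, limma adjusted p = 0.909).

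**Figure D5:**
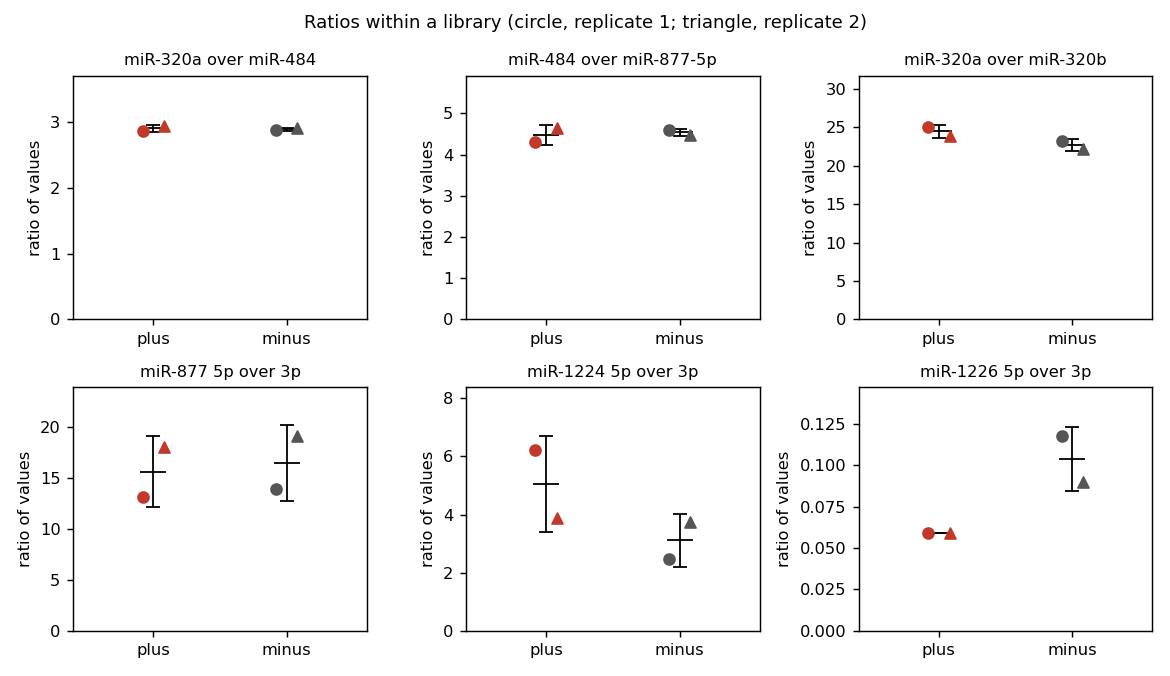
Ratios of values within each library, with circles for replicate 1, triangles for replicate 2, and the mean ± SD of the 2 libraries in black, plus left of minus. The ratio of miR-320a to miR-484 stays between 2.88 and 2.95, the 5p over 3p ratio of miR-877 separates by replicate, and that of miR-1226 is lower in both plus libraries, at 0.0592 and 0.0589, against 0.118 and 0.0900 in the minus libraries (5p over 3p from values + 1).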

How the data were processed

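The authors deposited 1 table of normalised read counts per mature miRNA, a signal close to but not equal to whole reads. Reads were trimmed with cutadapt per the labels, and the submitters' processing notes list TopHat2 2.0.8b, edgeR, hg19 and GRCh37. How reads were assigned to mature miRNAs is not given in the sources used here. Columns were matched to samples by library number and index. The column names write sh4 where the titles write sh2.

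Rows with a mean of at least 10 (709 of 1345) were tested for plus against minus with limma (version 3.58.1, R 4.3.3) after log2(value + 1), using a mean-variance trend, two-sided, Benjamini-Hochberg adjusted over all tested rows at 0.05. Fold changes on this scale understate low miRNAs. The fit had 2 residual degrees of freedom a row and borrowed 43.0. It was also run on simulated data with changes of 2-fold or more. That run does not show how well smaller changes, such as those of miR-320a and miR-484, are found. Replicates are 2 shRNA lines. With 43.0 borrowed degrees of freedom, the p-values rest mostly on a spread pooled over miRNAs, and little on how a given row varied between these lines. The main fit did not pair plus with minus by line.

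The worth of 1 read was estimated per library from values below 60, of which 84.2% to 100% lay within 0.1 of whole reads, giving 9577487 to 10298524 reads. Count models were not used, because the deposited values were expected to be normalised and not raw counts. The share fell well short of 100% in minus replicate 2, so read numbers are estimates. Read intervals are 95% Clopper-Pearson, for counting error only. Replicate libraries differed by more than counting noise (chi-square per degree of freedom 67.1 in the plus and 19.9 in the minus pair).

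All members were named, with the lists of further mirtrons, miR-320a relatives, miR-451a and markers. The members and lists were chosen with earlier results of these data known. Alternatives were other scalings, pseudocounts, level filters, no trend, collapsed identical rows, a replicate block and each library left out.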

Additional observations from a re-analysis of the deposited data

Results flagged for a closer look

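Of the 10 tested rows, 4 had opposite signs of change in the 2 shRNA lines. With 1 library per line and condition, none of these differences was tested. How often signs were opposite over all tested miRNAs was not counted. Taken as the log2 change in the sh2 line minus that in the sh1 line, they were −0.30 for miR-1226-3p, −0.042 for miR-1229, 0.99 for miR-1224-3p and 0.99 for miR-3605-5p. miR-1224-3p changed by 0.02 in the sh2 line and −0.97 in the sh1 line, on about 27 reads in the plus and 41 in the minus libraries. miR-3605-5p changed by 0.60 in the sh2 line and −0.38 in the sh1 line, on about 34 reads in the plus and 31 in the minus libraries.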

How the results depend on the processing

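Calls over all miRNAs numbered 202 (95 rose, 107 fell). They were 101 under quantile normalization (47 and 54), 5 with no level filter and 5 with no mean-variance trend (5 rises and 0 falls in each, with 311 and 219 rows at an unadjusted limma p under 0.05). With 1 library left out they ranged from 7 to 113, rises from 6 to 57 and falls from 1 to 58. Median-ratio scaling turned the split to 121 rises and 83 falls, and equal totals gave 68 and 107. The 2 falls among the capped and mirtron-like rows became 0 under median-ratio scaling, with no level filter, with no trend, and with any 1 library left out (0 in each). The log2 changes of miR-320a and miR-484 stayed negative in each of 14 alternatives, from −0.33 to −0.19 and from −0.32 to −0.20, and 7 of the 14 ended each call. The log2 change of miR-1226-3p ranged from −0.28 to 0.015 with 1 library left out (positive without plus replicate 2), of miR-877-3p from −0.43 to 0.11 (0.041 without minus replicate 1, 0.11 without plus replicate 2), of miR-3605-5p from −0.38 (without plus replicate 2) to 0.60, and of miR-1229 from −0.12 (without plus replicate 1; −0.097 without minus replicate 2) to 0.13, with −0.049 under equal totals. The cause was not tested. No uncalled member became called in any alternative. With the replicate number as a block, 103 rose and 113 fell, and miR-320a and miR-484 stayed the 2 falls (limma adjusted p = 0.00599 and 0.00805). That fit had 1 residual degree of freedom a row and 709 in total. Its p-values thus rest almost wholly on a spread pooled over miRNAs, and being smaller does not make them stronger paired evidence. The number of plus replicate 1 is a reading by elimination, and the differences between replicates 1 and 2 correlated across rows at r = 0.056 between the groups (0.18 at a mean of at least 1000), so the block is given here only. Of the 8 mirtron-like rows tested, 6 had a 95% interval that spanned changes in both directions, miR-1226-3p and miR-877-3p among them, and the part of depth in this was not tested.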
